A study of Mus musculus with 6 samples.

Results

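The genes analysed were those that carry antigen to the cell surface on MHC molecules, which in the mouse are called H2. They were chosen by name, as every protein-coding gene whose symbol starts with H2- together with B2m, Tap1, Tap2, Tapbp, Tapbpl, Erap1, Psmb8, Psmb9, Psmb10, Psme1, Psme2, Nlrc5, Ciita and Cd74. This gave 48 of the 54532 genes in the count table. Of these, 36 belong to the class I pathway (24 heavy chains and 12 genes of the light chain and machinery), 11 belong to the class II pathway, and H2-Ke6, which encodes a hydroxysteroid dehydrogenase, belongs to neither. On GRCm38, 39 of the 48 lie on chromosome 17, and the 34 genes named H2- span 33996017 to 37483552 of that chromosome.

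The cells were CD4+ T cells from spleens of male C57BL/6 mice aged 6 to 8 weeks, taken by magnetic negative selection and cultured for 72 h under Th1 conditions. All cultures received anti-CD3ε, anti-CD28, IL-2, IL-12 and anti-IL-4. The 3 Th1 libraries came from cultures with vehicle (0.1% DMSO), and the 3 Th1+ALX-5407 libraries from cultures with 500 nM of the GlyT1 inhibitor ALX-5407 (GlyT1 carries glycine into cells). The series text describes an exposure of 72 h and the study methods one of 24 h. The cells are a bulk culture of 1 inbred strain, and MHC protein was not among the measurements analysed here. The comparison asks how GlyT1 inhibition altered the expression of genes in differentiating Th1 cells.

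MHC class I molecules present peptides made in the cytosol. The proteasome cuts proteins, the TAP1/TAP2 transporter carries peptides into the endoplasmic reticulum, ERAP1 trims them, and tapasin helps load them onto a heavy chain paired with β2-microglobulin. Nearly all cells carry class I, and interferon-γ raises most of the pathway, partly through the transactivator NLRC5. MHC class II molecules present peptides from endosomes, are guarded by the invariant chain CD74 until H2-DM exchanges its remnant for peptide, and depend on the transactivator CIITA. Dendritic cells, B cells and macrophages express class II constitutively, and mouse T cells are known for very low class II transcription.

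Depth was alike in all libraries, with 30801753 to 36727788 counts per library. All 10 T cell markers were present, 2 of them higher and 5 lower with ALX-5407, where 24.5% of all genes tested were higher and 23.2% lower. Cd28 (log2 fold change 0.52) and Cd5 (0.24) were higher. Cd4 (-0.46), Cd3d (-0.39), Cd3g (-0.35), Trbc2 (-0.30) and Trbc1 (-0.19) were lower, and Cd3e, Lck and Trac were not called. Levels are given as CPM, the counts scaled to 1000000 per library, with library sizes adjusted by TMM factors. Genes were called at a Benjamini-Hochberg adjusted p under 0.05 over 15938 genes, from the quasi-likelihood test of edgeR. Genes with an absolute log2 fold change over 1 as well were termed DEGs, after the thresholds of the study.

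Of the 48 genes, 34 had enough counts to be tested, 24 of class I and 10 of class II. With ALX-5407, 12 of the 34 (35.3%) were higher and 6 (17.6%) lower, where 24.5% of all genes tested were higher and 23.2% lower. Only Cd74 was a DEG in the upward direction and only H2-Q1 in the downward direction, where 3.36% of all genes tested were higher DEGs and 6.68% lower DEGs. In class I, 11 of 24 genes (45.8%) were higher and 4 (16.7%) lower, with a median log2 fold change of 0.19. In class II, 1 of 10 (10%) was higher and 2 (20%) lower, with a median of -0.059, and the median over all genes tested was 0.0053. These counts describe genes that were picked for their function with earlier results known, and the difference between the classes was not tested.

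The promoters of the class I heavy chains are shown first, since genes of this related family were called in opposite directions. The sequences are from RefSeq (GRCm38.p6) and run from 200 bases to 21 bases before the first start site listed for the gene, on the gene's strand. Capitals mark matches, on either strand, to the X2 box core TGACG, the Y box core CCAAT, the interferon elements GAAANNGAA or GAANNGAAA, and the κB motif GGGNNTTCC. H2-D1, H2-Q6, H2-T22 and H2-M3 were called higher with ALX-5407, H2-Q10 and H2-Q2 lower, and H2-K1, H2-Q4, H2-Q7 and B2m were not called. H2-Aa and H2-Eb1 stand for class II.
H2-K1, chr17:34000368-34000547, minus strand: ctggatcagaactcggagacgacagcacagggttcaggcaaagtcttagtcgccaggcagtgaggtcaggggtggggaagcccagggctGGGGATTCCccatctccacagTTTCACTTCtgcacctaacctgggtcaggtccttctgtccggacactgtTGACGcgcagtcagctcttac
H2-D1, chr17:35262894-35263073, plus strand: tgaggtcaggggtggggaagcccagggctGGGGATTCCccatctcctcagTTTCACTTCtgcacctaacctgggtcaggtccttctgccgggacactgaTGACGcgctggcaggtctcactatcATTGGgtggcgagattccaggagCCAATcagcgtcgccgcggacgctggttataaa
H2-Q4, chr17:35379417-35379596, plus strand: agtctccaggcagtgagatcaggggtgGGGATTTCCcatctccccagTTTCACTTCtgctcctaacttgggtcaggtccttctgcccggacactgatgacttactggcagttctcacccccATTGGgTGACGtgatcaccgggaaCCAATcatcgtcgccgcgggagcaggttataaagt
H2-Q6, chr17:35424650-35424829, plus strand: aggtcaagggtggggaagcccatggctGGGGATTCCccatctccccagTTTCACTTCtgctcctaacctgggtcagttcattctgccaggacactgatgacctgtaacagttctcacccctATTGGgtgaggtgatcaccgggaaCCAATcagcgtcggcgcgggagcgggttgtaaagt
H2-Q7, chr17:35438955-35439134, plus strand: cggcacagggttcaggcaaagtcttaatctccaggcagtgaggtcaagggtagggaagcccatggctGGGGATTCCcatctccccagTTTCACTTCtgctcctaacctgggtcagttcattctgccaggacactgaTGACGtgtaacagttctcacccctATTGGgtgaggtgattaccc
H2-Q10, chr17:35469889-35470068, plus strand: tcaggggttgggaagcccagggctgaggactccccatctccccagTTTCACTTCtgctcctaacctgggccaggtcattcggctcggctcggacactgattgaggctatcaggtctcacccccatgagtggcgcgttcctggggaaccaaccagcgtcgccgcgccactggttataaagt
H2-Q2, chr17:35342107-35342286, plus strand: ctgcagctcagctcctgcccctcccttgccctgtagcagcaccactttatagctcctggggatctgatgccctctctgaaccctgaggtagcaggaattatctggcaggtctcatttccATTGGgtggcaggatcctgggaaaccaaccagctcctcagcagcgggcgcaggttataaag
H2-T22, chr17:36042763-36042942, minus strand: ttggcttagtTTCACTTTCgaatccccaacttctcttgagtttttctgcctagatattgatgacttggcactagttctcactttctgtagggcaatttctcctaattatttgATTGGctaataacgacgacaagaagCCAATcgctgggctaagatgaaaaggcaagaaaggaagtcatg
H2-M3, chr17:37270034-37270213, plus strand: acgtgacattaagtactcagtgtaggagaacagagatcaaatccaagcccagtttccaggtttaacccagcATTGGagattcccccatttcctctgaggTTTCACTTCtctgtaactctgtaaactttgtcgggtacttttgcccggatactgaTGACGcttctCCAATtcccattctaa
B2m, chr2:122147487-122147666, plus strand: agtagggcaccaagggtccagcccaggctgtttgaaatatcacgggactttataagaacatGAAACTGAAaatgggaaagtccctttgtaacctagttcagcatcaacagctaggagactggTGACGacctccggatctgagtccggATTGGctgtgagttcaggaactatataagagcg
H2-Aa, chr17:34287844-34288023, minus strand: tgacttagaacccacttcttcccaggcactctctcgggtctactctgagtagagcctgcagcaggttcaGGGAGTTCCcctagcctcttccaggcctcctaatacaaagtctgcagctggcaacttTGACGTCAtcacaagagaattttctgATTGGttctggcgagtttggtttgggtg
H2-Eb1, chr17:34305667-34305846, plus strand: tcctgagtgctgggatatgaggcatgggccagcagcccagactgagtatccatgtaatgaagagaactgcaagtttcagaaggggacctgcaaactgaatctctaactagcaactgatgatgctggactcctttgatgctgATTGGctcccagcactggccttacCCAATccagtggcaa

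Of the 34 tested genes, 26 had a promoter in this table, read as 300 bases from 250 before to 50 after the start site. H2-Q1, H2-T24, Nlrc5, Tap2, Tapbpl, H2-Ab1, Cd74 and Ciita had no entry there. TGACG was found in 6 of 10 heavy chain promoters and in 1 of 7 class II promoters, against 21% of 27025 promoters. CCAAT was found in 9 of 10 heavy chain and 6 of 7 class II promoters, against 37.9% of all. GAAANNGAA was in 2 of 10 heavy chain promoters and none of the 7 of class II (8.57% of all), and GAANNGAAA in 7 of 10 and none of 7 (7.56% of all). GAANNGAAA was added after these promoters were read, so its share follows from the sequences that prompted it. Several heavy chain promoters share long runs of bases, so for every motif they are not separate observations. The κB motif was in 5 of 10 and 2 of 7, against 5.72% of all. For H2-DMa the window read was 34122582 to 34122881 on chromosome 17. That lies well upstream of the start in the count table, 34135182, and the window held no match to any of the motifs.

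H2-Q10 held neither TGACG nor CCAAT nor the κB motif, and its match to GAANNGAAA was its only one. H2-Q2 held 1 CCAAT and no other match. H2-D1, which was called higher, held TGACG, the κB motif, GAANNGAAA and 2 CCAAT matches, and H2-K1 and H2-Q7, which were not called, held the same set. H2-Q6 was called higher and held no TGACG, and H2-Q4 held 2 and was not called. In H2-K1 both CCAAT matches lie nearer the listed start than the stretch printed or past it. In H2-Aa the letters TGACGTCA are a match on both strands and count 2 times. These matches are descriptions of the windows, and binding was not measured.

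**Figure D1:**
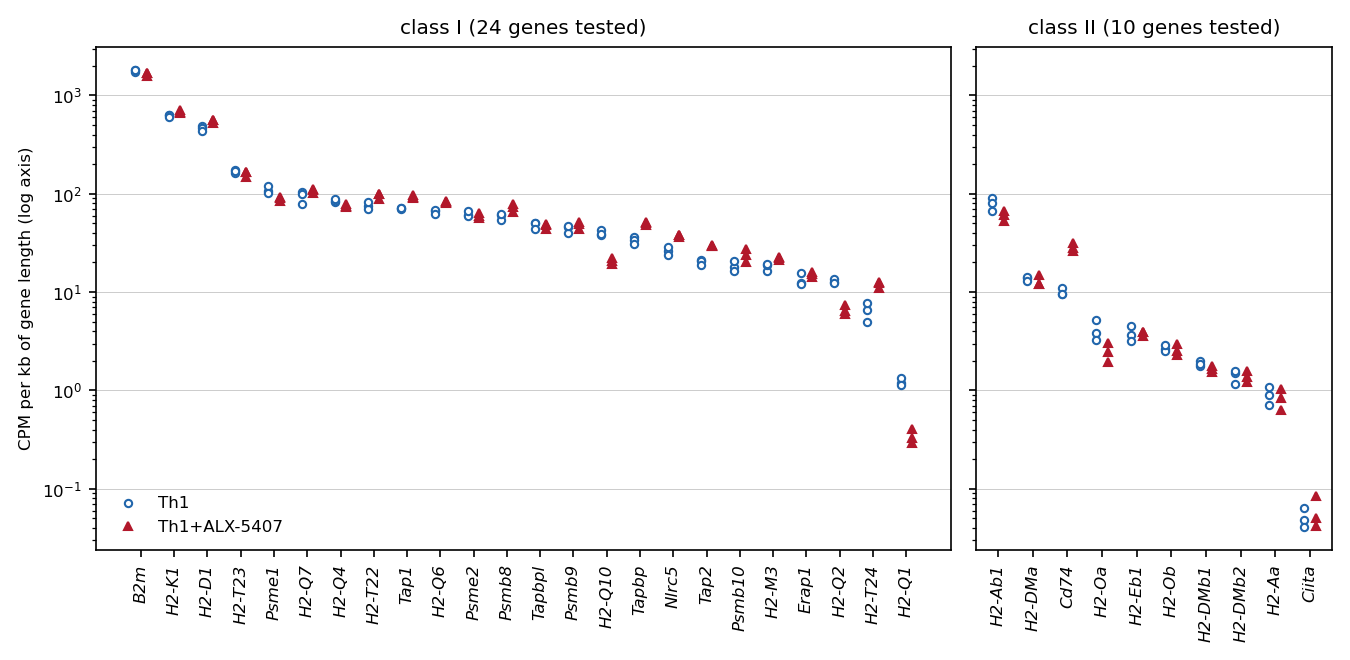
Level of each tested gene in each library, as CPM per kb of gene length on a log axis, with class I on the left and class II on the right; each open circle is 1 Th1 library and each triangle 1 Th1+ALX-5407 library. B2m, H2-K1 and H2-D1 stand above all others, and H2-Ab1 is the highest class II gene in both groups.

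Per kb of gene length, B2m had the highest level of all members and was the 11th most abundant gene of the table, averaging 1719 CPM per kb over the 6 libraries. H2-K1 followed at 651 and H2-D1 at 508 CPM per kb. H2-Ab1 ranked 11th among the members at 69.6 CPM per kb, while H2-Aa, which encodes its partner chain, ranked 32nd at 0.871. Ciita was near the floor at 0.0549 CPM per kb. Counting does not separate fewer cells of a type from less RNA per cell, so in these bulk libraries either would give the same value.

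The classical class I heavy chains, which present peptides to CD8+ T cells, rose slightly or did not pass the test. H2-D1 had 1259, 1216 and 1133 CPM in the 3 Th1 libraries and 1439.9, 1452 and 1355 CPM in the 3 Th1+ALX-5407 libraries. All ALX-5407 values were above all control values, and the log2 fold change was 0.23 ± 0.071 (SE, n = 3 per group, adjusted p = 0.0121, edgeR). Without Th1+ALX-5407 replicate 1 or 2 its adjusted p was 0.0544 or 0.0624. H2-K1 had 1638, 1631 and 1559 CPM in Th1 and 1842, 1787 and 1730.4 CPM in Th1+ALX-5407. Its groups did not overlap either, but it was not called, with a log2 fold change of 0.15 ± 0.068 (SE, adjusted p = 0.0791, edgeR). The ratio of H2-K1 to H2-D1 per kb was 1.32 ± 0.0371 (SD, n = 3) in Th1 and 1.25 ± 0.0271 in Th1+ALX-5407 (exact permutation p = 0.1, two-sided, the smallest that 3 against 3 allows).

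The Q, T and M genes encode nonclassical heavy chains, some with specialised ligands, and they moved in both directions. Of the 10 tested, 4 were higher, 3 lower and 3 not called, where 24.5% of all genes tested were higher and 23.2% lower. H2-Q10, whose product is known as a secreted class I molecule of the liver, fell from 187, 167 and 169 CPM to 90.5, 96.6 and 83.2 CPM. Every ALX-5407 library lay below every control, with a log2 fold change of -0.95 ± 0.077 (SE, adjusted p = 8.01e-08, edgeR). H2-Q2 fell from 27.4, 29.6 and 27.1 CPM to 13.9, 16.3 and 13.1 CPM, with a log2 fold change of -0.96 ± 0.10 (SE, adjusted p = 1.57e-06). H2-Q1, the only member among the lower DEGs, had 111, 121 and 99 counts in Th1 and 41, 31 and 33 counts in Th1+ALX-5407. Its log2 fold change was -1.84 ± 0.24 (SE, adjusted p = 1.29e-05, edgeR), at a level of 3.49 ± 0.330 CPM (SD, n = 3) in Th1.

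The 3 other Q genes tested were not called lower. H2-Q6 rose from 139.7, 142 and 131 CPM to 175, 173 and 167 CPM, with no overlap and a log2 fold change of 0.32 ± 0.069 (SE, adjusted p = 0.00116, edgeR). H2-Q6 and H2-Q7 encode Qa-2 antigens. H2-Q7 had 441, 428 and 336 CPM in Th1 and 481, 469 and 432 CPM in Th1+ALX-5407, and the groups overlapped (log2 fold change 0.20, adjusted p = 0.0910). Without Th1 replicate 3 the log2 fold change of H2-Q7 was 0.067 (adjusted p = 0.437). H2-Q4 had 215, 220.2 and 229.6 CPM in Th1 and 206, 196 and 192 CPM in Th1+ALX-5407. The groups of H2-Q4 did not overlap, and its log2 fold change of -0.16 missed the threshold (adjusted p = 0.0655), which it passed in DESeq2 (adjusted p = 0.0407) and with upper quartile scaling (adjusted p = 0.0181).

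H2-T24 rose most among the heavy chains, from 14.4, 16.8 and 10.95 CPM to 26.9, 24.1 and 27.4 CPM. The groups were well apart, with a log2 fold change of 0.90 ± 0.13 (SE, adjusted p = 3.11e-05, edgeR). H2-T22, whose product is a ligand of some γδ T cell receptors, had 254, 237 and 283 CPM in Th1 and 305, 338 and 343 CPM in Th1+ALX-5407 (log2 fold change 0.35 ± 0.080 SE, adjusted p = 0.00181). H2-M3, which presents N-formylated bacterial peptides, rose from 23.8, 26.9 and 27.6 CPM to 30.5, 31.8 and 32.8 CPM (log2 fold change 0.28, adjusted p = 0.0157), and was no longer called without Th1 replicate 1 (adjusted p = 0.0912) or without Th1+ALX-5407 replicate 3 (adjusted p = 0.0508). H2-T23 encodes Qa-1, the ligand of the CD94/NKG2A receptor. It had 507, 465 and 497 CPM in Th1 and 478, 477 and 430.1 CPM in Th1+ALX-5407, which overlapped, with a log2 fold change of -0.09 (95% interval -0.24 to 0.07).

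The heavy chain genes share sequence, and how reads with several mapping places were counted is not given in the sources used here. Of all 75-base stretches of its GENCODE M21 transcripts, H2-T22 shared 40% with another gene, H2-Q6 21.1%, H2-Q4 20.7%, H2-Q7 17%, H2-Q10 12.5%, H2-Q1 10.9% and H2-Q2 8.07%. H2-T23 shared 5.91%, H2-D1 5.56%, H2-K1 3.1%, H2-T24 0.459%, and H2-M3 none. H2-Q7 was the leading partner of both H2-Q6 and H2-Q10, and H2-Q1 that of H2-Q2, while H2-T22 shared most with the opposite-strand gene A930015D03Rik. The values of single Q genes and of H2-T22 are therefore uncertain, and by this measure those of H2-T23 and H2-T24 less so. When all 24 heavy chain genes were summed in each library, the sum had a log2 fold change of 0.13 ± 0.07 (SE, adjusted p = 0.139, edgeR), so the pool of heavy chain transcripts was not called.

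**Figure D2:**
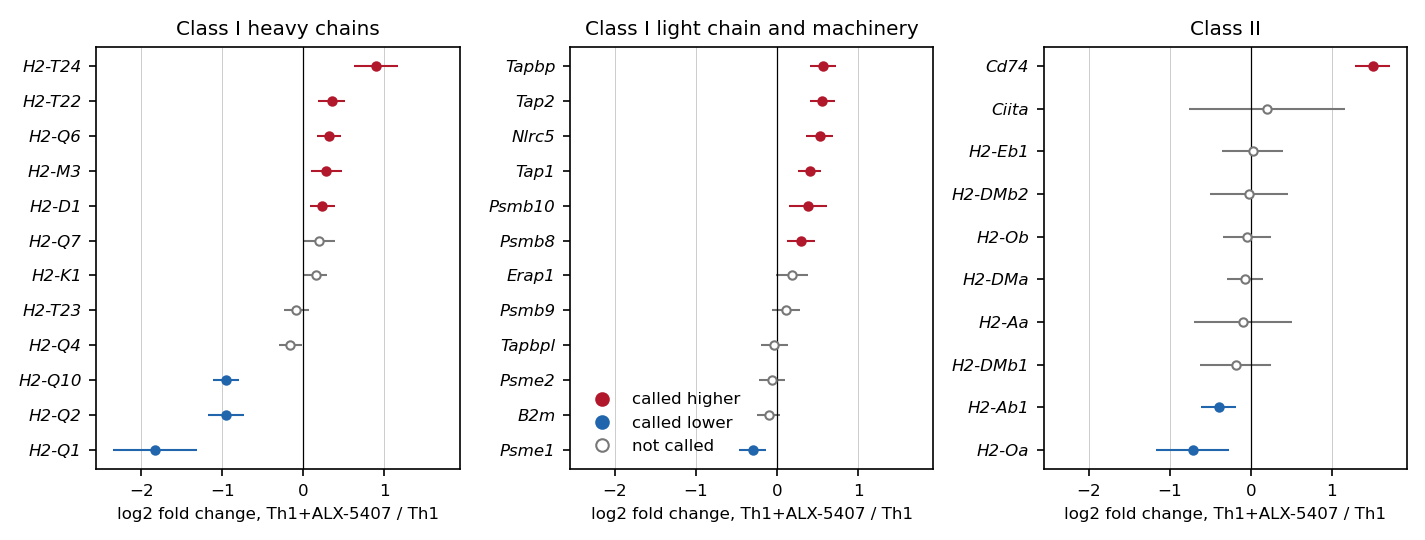
Log2 fold change of Th1+ALX-5407 against Th1 for the 34 tested genes, with 95% intervals from edgeR; filled points were called higher or lower at an adjusted p under 0.05 and open points were not called. Heavy chains range from -1.84 for H2-Q1 to 0.90 for H2-T24, Tap1, Tap2 and Tapbp lie between 0.40 and 0.57, and in class II Cd74 stands alone at 1.51.

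The light chain B2m, which all class I heavy chains need, was not called. It had 1472, 1565 and 1557 CPM in Th1 and 1457, 1455 and 1363 CPM in Th1+ALX-5407. All ALX-5407 values lay below the controls, with a log2 fold change of -0.10 (95% interval -0.25 to 0.04, adjusted p = 0.234, edgeR). The signs of B2m and H2-K1 differed, neither being called, and the ratio of B2m to H2-K1 per kb was 2.89 ± 0.153 (SD, n = 3) in Th1 and 2.42 ± 0.0437 in Th1+ALX-5407 (exact permutation p = 0.1, two-sided, the smallest possible).

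The genes of the peptide transporter and of tapasin rose. Tap1 had 388, 383 and 389 CPM in Th1 and 511, 529 and 495 CPM in Th1+ALX-5407, with a log2 fold change of 0.40 ± 0.067 (SE, adjusted p = 0.000118, edgeR). Tap2, the other subunit of the transporter, had 80.2, 79.2 and 70.7 CPM and 112, 112 and 115 CPM in the same order (log2 fold change 0.56 ± 0.073 SE, adjusted p = 1.16e-05). Tapbp, which encodes tapasin, rose from 119, 113 and 101 CPM to 170.2, 159 and 165 CPM (log2 fold change 0.57 ± 0.075 SE, adjusted p = 1.22e-05). For these 3 genes every ALX-5407 library was above every control. Tapbpl, which encodes the related peptide editor TAPBPR, had 119.8, 119 and 103 CPM in Th1 and 116, 114 and 104 CPM in Th1+ALX-5407, with overlap and a log2 fold change of -0.03 (95% interval -0.20 to 0.14). Per kb, Tap1 exceeded Tap2 with a ratio of 3.49 ± 0.266 (SD, n = 3) in Th1 and 3.13 ± 0.145 in Th1+ALX-5407.

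Nlrc5, the transactivator of class I genes, also rose. It had 223, 202 and 242 CPM in Th1 and 327, 309.9 and 322 CPM in Th1+ALX-5407. The groups did not overlap, and the log2 fold change was 0.52 ± 0.076 (SE, adjusted p = 3.14e-05, edgeR). Erap1, the trimming peptidase, had 91.0, 87.0 and 113 CPM in Th1 and 110.0, 105 and 116 CPM in Th1+ALX-5407. One control overlapped the ALX-5407 values, and Erap1 was not called (log2 fold change 0.19, 95% interval -0.01 to 0.38), and single libraries decided the value. Without Th1 replicate 3 it was called (log2 fold change 0.29, adjusted p = 0.00261), and without Th1 replicate 2 the log2 fold change was 0.10 (adjusted p = 0.42).

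Of the 3 catalytic subunits of the immunoproteasome, 2 were called higher, where 24.5% of all genes tested were higher and 23.2% lower. Psmb8, encoding LMP7, had 166, 149 and 169 CPM in Th1 and 200.4, 213 and 180.1 CPM in Th1+ALX-5407, without overlap (log2 fold change 0.29 ± 0.079 SE, adjusted p = 0.00601, edgeR). Psmb10, encoding MECL-1, had 30.7, 27.7 and 35.2 CPM in Th1 and 47.0, 40.4 and 34.7 CPM in Th1+ALX-5407. It was called higher (log2 fold change 0.38 ± 0.11 SE, adjusted p = 0.00948) although Th1+ALX-5407 replicate 3 lay just below Th1 replicate 3. Without Th1 replicate 2 or Th1+ALX-5407 replicate 1 its adjusted p was 0.0598 or 0.0713. Psmb9, encoding LMP2, had 167, 147 and 173 CPM in Th1 and 187, 179.6 and 159.8 CPM in Th1+ALX-5407, with overlap and no call (log2 fold change 0.11, 95% interval -0.06 to 0.29). The log2 fold change of Psmb9 was 0.036 without Th1 replicate 2, 0.071 without Th1+ALX-5407 replicate 1 and 0.18 without Th1+ALX-5407 replicate 3, and it was called in none of these fits.

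Each immunosubunit replaces a constitutive one, so the ratio per kb of the pair was also computed. Psmb8 to Psmb5 was 1.52 ± 0.0420 (SD, n = 3) in Th1 and 1.31 ± 0.0667 in Th1+ALX-5407, and Psmb5 itself rose (log2 fold change 0.50, adjusted p = 0.000146). Psmb9 to Psmb6 was 0.890 ± 0.0334 (SD, n = 3) in Th1 and 0.837 ± 0.0400 in Th1+ALX-5407, and Psmb10 to Psmb7 was 0.712 ± 0.0745 (SD, n = 3) in Th1 and 1.04 ± 0.143 in Th1+ALX-5407. For each pair the groups did not overlap, the ratio lying lower with ALX-5407 for Psmb8 and Psmb9 and higher for Psmb10, with an exact permutation p of 0.1, the smallest that 3 against 3 libraries allows. Psme1, a subunit of the proteasome activator PA28, fell from 235, 267 and 223 CPM to 202, 203 and 185 CPM (log2 fold change -0.30 ± 0.079 SE, adjusted p = 0.00481). Its partner Psme2 had 108, 104 and 117 CPM in Th1 and 104, 113 and 98.9 CPM in Th1+ALX-5407, which overlapped (log2 fold change -0.06, 95% interval -0.22 to 0.10).

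**Figure D3:**
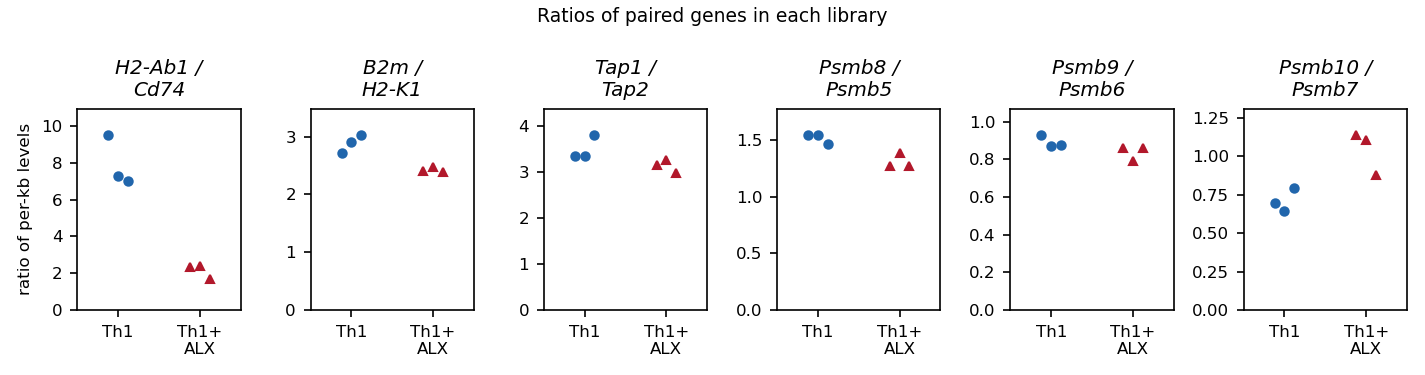
Ratio of the per-kb levels of paired genes in each of the 6 libraries, on linear axes from 0; circles are Th1 and triangles Th1+ALX-5407 libraries. The H2-Ab1 to Cd74 ratio lies between 7.04 and 9.51 in Th1 and between 1.71 and 2.38 in Th1+ALX-5407, while the other ratios differ less between the groups.

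Several of these genes overlap others on the chromosome. Psmb9 and Tap1 lie head to head and share 212 exon bases, which are 5.79% of the Psmb9 and 3.87% of the Tap1 exon bases in GENCODE M21. Exons of opposite-strand genes also cover 14.7% of Psmb8, 18.5% of Tap2, 29.4% of H2-T22, 19.1% of H2-Q4, 11.5% of Erap1 and 22.8% of H2-Oa, and genes of both strands cover 29% of Tapbp. Whether counting used strand is not given in the sources used here, so reads from these stretches cannot be told apart from those of the partner genes. Exons of B2m, H2-K1, H2-D1, H2-Ab1 and Psmb10 overlapped no other gene there.

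Of the class II genes tested, 1 was higher, 2 were lower and 7 were not called, where 24.5% of all genes tested were higher and 23.2% lower. Cd74, the invariant chain, had 13.3, 15.6 and 13.4 CPM in Th1 and 36.7, 39.4 and 44.2 CPM in Th1+ALX-5407. The lowest ALX-5407 library was far above the highest control, and the log2 fold change was 1.51 ± 0.10 (SE, adjusted p = 1.07e-08, edgeR), a 2.85-fold increase. Cd74 also serves as a surface receptor for the cytokine MIF.

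H2-Ab1, the β chain of I-A, fell. It had 147, 132 and 109 CPM in Th1 and 99.2, 109 and 87.5 CPM in Th1+ALX-5407. The lowest control and the highest ALX-5407 library nearly touched, and the log2 fold change was -0.39 ± 0.10 (SE, adjusted p = 0.00435, edgeR). H2-Aa, the α chain that pairs with it, had only 66, 42 and 52 counts in Th1 and 56, 73 and 42 counts in Th1+ALX-5407, with a log2 fold change of -0.09 (95% interval -0.69 to 0.51). H2-Eb1 had 140, 117 and 164 counts in Th1 and 164, 174 and 150 counts in Th1+ALX-5407, with a log2 fold change of 0.03 (95% interval -0.35 to 0.40). Neither was called, and at these counts a change of the size seen in H2-Ab1 lies inside the interval of H2-Aa.

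The chains of I-A were therefore far from equal. Per kb, the level of H2-Ab1 was 90.003 ± 20.4 times that of H2-Aa in Th1 and 73.0 ± 10.02 times in Th1+ALX-5407 (means ± SD, n = 3, exact permutation p = 0.3). The ratio of H2-Ab1 to Cd74 per kb was 7.95 ± 1.36 (SD, n = 3) in Th1 and 2.14 ± 0.375 in Th1+ALX-5407 (exact permutation p = 0.1, the smallest possible). The file places the start of H2-Ab1 at 34263209 on chromosome 17, while GENCODE M21 places it at 34257689. When the 4 class II chain genes were summed, the log2 fold change was -0.37 ± 0.10 (SE, adjusted p = 0.00553, edgeR), a sum in which H2-Ab1 holds nearly all counts.

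The genes of peptide exchange were low, and 1 of 5 was called, in the lower direction. Among all genes tested, 24.5% were higher and 23.2% lower. H2-DM removes the CD74 remnant, and H2-O restrains H2-DM. H2-DMa had 22.8, 23.4 and 21.3 CPM in Th1 and 19.8, 24.5 and 19.9 CPM in Th1+ALX-5407, with a log2 fold change of -0.07 (95% interval -0.29 to 0.15). H2-DMb1 and H2-DMb2, which share 15.8% and 16.2% of their 75-base stretches mainly with each other, had 80 to 97 and 61 to 95 counts per library and log2 fold changes of -0.18 and -0.02. H2-Oa fell from 5.04, 4.24 and 6.79 CPM to 3.99, 3.22 and 2.57 CPM without overlap (log2 fold change -0.72 ± 0.21 SE, adjusted p = 0.0109, edgeR). Without Th1 replicate 3 its log2 fold change was -0.53 (adjusted p = 0.057), and without Th1+ALX-5407 replicate 3 it was -0.57 (adjusted p = 0.0556). H2-Ob had 8.26, 7.94 and 9.03 CPM in Th1 and 9.32, 7.91 and 7.19 CPM in Th1+ALX-5407 (log2 fold change -0.05, 95% interval -0.34 to 0.25).

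Ciita, the transactivator without which class II genes are silent in most cells, had 15, 19 and 12 counts in Th1 and 17, 15 and 28 counts in Th1+ALX-5407. The groups overlapped, and at this depth the 95% interval of its log2 fold change (-0.76 to 1.17) would hold either an increase or a decrease. H2-Eb2 was too low for the test, with 0, 2 and 4 counts in Th1 and 13, 18 and 6 counts in Th1+ALX-5407.

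**Figure D4:**
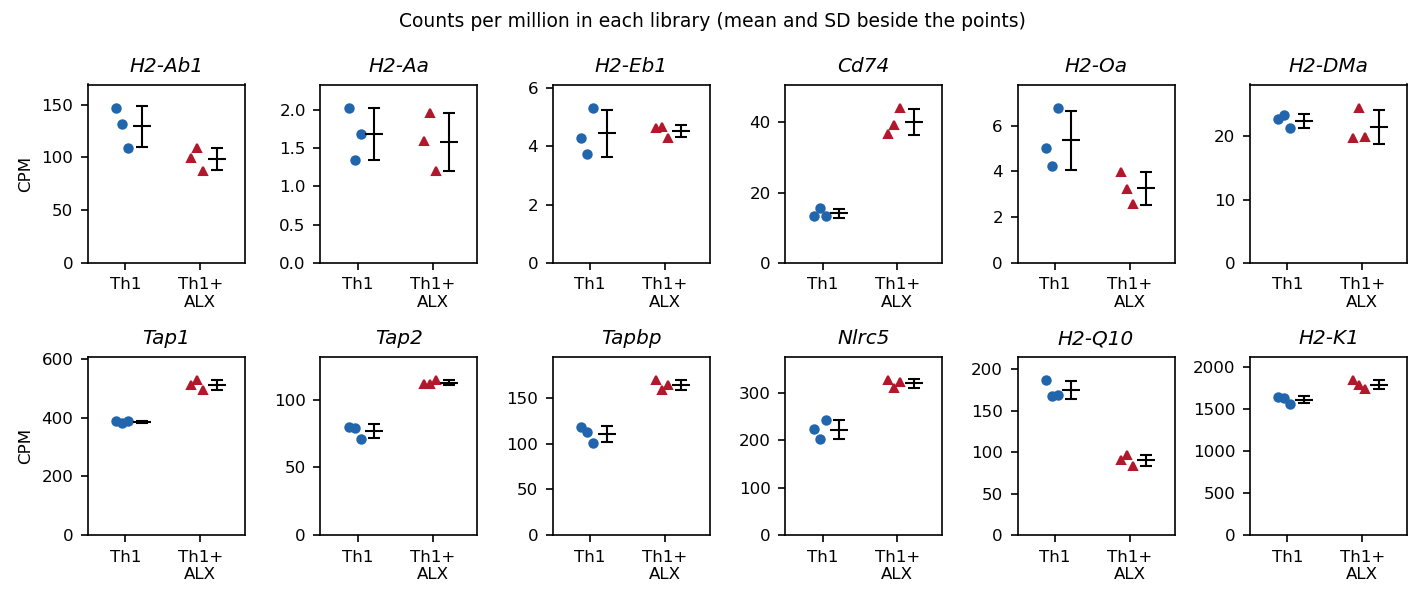
CPM of 12 genes in each library on linear axes from 0, with the mean and SD of the 3 libraries of a group beside the points; circles are Th1 and triangles Th1+ALX-5407 libraries. Cd74, Tap1, Tap2, Tapbp and Nlrc5 lie higher with ALX-5407 and H2-Q10, H2-Ab1 and H2-Oa lower, without overlap, while H2-Aa, H2-Eb1 and H2-DMa overlap.

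Class II transcripts can also come from other cells of the spleen, so their markers were counted in the same libraries. All 13 B cell markers passed the filter, 4 were higher and 3 lower, and 10 had a log2 fold change above 0, with a median of 0.40. Among all genes tested, 24.5% were higher and 23.2% lower. Their summed level, in which Ighm was the largest at 58.8, 53.7 and 53.5 CPM in Th1 and 62.0, 64.8 and 61.2 CPM in Th1+ALX-5407, was 96.8 to 106.7 CPM in Th1 and 90.9 to 95.01 CPM in Th1+ALX-5407. Higher were Pax5 (log2 fold change 0.90), Cd22 (0.78), Cd79a (0.67) and Ms4a1 (1.27), and lower were Igkc (-1.69), Ebf1 (-1.62) and Fcer2a (-1.03). The part of B cells in the levels of Cd74 and H2-Ab1 was not tested.

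Of 14 dendritic cell and macrophage markers, 4 passed the filter, and the summed level of all 14 was 21.2 to 27.0 CPM in Th1 and 9.09 to 10.1 CPM in Th1+ALX-5407. Most of this sum was 1 gene, Cd68, at 19.6, 20.7 and 14.8 CPM in Th1 and 5.04, 5.63 and 5.65 CPM in Th1+ALX-5407. Cd68 (log2 fold change -1.75) and Mrc1 (-1.32) were lower, Flt3 (-0.51) and Zbtb46 (-0.40) were not called, and none was higher. Siglech was at 0 in all libraries, Itgax and Lyz2 had at most 8 counts, and Adgre1 and Clec9a at most 2. Of 5 neutrophil markers, S100a8, S100a9 and Csf3r were at 0 in all libraries, and Ly6g (-1.42) and Cxcr2 (-0.77) were lower. Their summed level was therefore Ly6g and Cxcr2 alone, at 93.0 to 103.3 CPM in Th1 and 36.5 to 46.8 CPM in Th1+ALX-5407. With the other markers at 0, this sum is no measure of neutrophils. Of 2 CD8+ T cell markers, Cd8a was lower (-0.80) and Cd8b1 was not called, with sums of 9.25 to 9.59 and 6.71 to 8.87 CPM. Of 4 NK cell markers, Eomes, which T cells also express, was higher (1.05), and the other markers had at most 9 counts, with sums of 1.92 to 3.41 and 4.96 to 5.58 CPM. Whether these cells contributed to the class II levels was not tested.

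The other genes of antigen presentation were read from 3 lists, beside 24.5% higher and 23.2% lower among all genes tested. In class I loading and folding, 7 of 19 genes were higher and 1 lower, with a median log2 fold change of 0.10. The higher genes were Ube2l6 (log2 fold change 0.80), a conjugating enzyme for ISG15, the peptidase Thop1 (0.65), the proteasome activator Psme3 (0.57), the constitutive subunit Psmb5 (0.50), Ergic1 (0.39), and the endoplasmic reticulum chaperones Hspa5 (0.34) and Pdia3 (0.26). Lnpep, an endosomal aminopeptidase, was lower (-0.22). The chaperones calreticulin and calnexin were not called, with log2 fold changes of -0.01 for Calr and -0.02 for Canx.

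Among 12 class I-like genes, 6 were tested, 3 higher and 2 lower. Higher were Ulbp1 (log2 fold change 0.88), an NKG2D ligand, Cd1d1 (0.87), which presents lipids to NKT cells, and Mr1 (0.42), which presents metabolites to MAIT cells. Hfe, a regulator of iron uptake, had 138, 135 and 129 counts in Th1 and 6, 10 and 2 counts in Th1+ALX-5407, a log2 fold change of -4.64 ± 0.35 (SE, adjusted p = 3.7e-08, edgeR). Procr was also lower (-0.87).

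Of 14 class II processing and turnover genes, 12 were matched by name, March1 and March8 not being matched, and 11 were tested. The endosomal proteases Lgmn (log2 fold change 0.60), Ctsl (0.53) and Ctsd (0.23) were higher, and Ctss, the protease that cleaves CD74, was lower (-0.64). Cd83, which holds class II at the cell surface, fell most of these genes, from 41.7, 42.2 and 50.01 CPM to 6.60, 6.996 and 7.59 CPM (log2 fold change -2.66 ± 0.11 SE, adjusted p = 4.64e-11, edgeR). The median over the 11 genes was 0.04.

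Regulators of MHC genes were called in both directions, as were genes over the whole table. Of 13 genes of the interferon-γ axis, 4 were higher and 4 lower, where 24.5% of all genes tested were higher and 23.2% lower. Ifng itself had 551, 665 and 764 CPM in Th1 and 400.2, 383 and 364 CPM in Th1+ALX-5407, a log2 fold change of -0.79 ± 0.097 (SE, adjusted p = 5.75e-06, edgeR). Both receptor chains were lower (Ifngr1 -0.55, Ifngr2 -0.73), as was the phosphatase gene Ptpn2 (-0.75). Among the higher genes were Stat2 (0.37), Jak1 (0.24) and the feedback inhibitor Socs1 (0.44). Irf1, an activator of class I genes, was not called (-0.01, 95% interval -0.16 to 0.13). Whether the levels of Tap1, Tap2, Tapbp and Nlrc5 follow any of these genes was not tested.

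Of 20 promoter factors and cofactors, 19 were tested, 7 higher and 5 lower, beside 24.5% and 23.2% of all genes tested. Prdm1, encoding Blimp-1, a repressor known to silence Ciita in plasma cells, had 18.6, 20.1 and 18.3 CPM in Th1 and 92.4, 96.1 and 80.7 CPM in Th1+ALX-5407 (log2 fold change 2.24 ± 0.088 SE, adjusted p = 4.47e-11, edgeR). It was the only DEG of both regulator lists. Ezh2 (0.57), a histone methyltransferase, Irf4 (0.48), Ep300 (0.40), Creb1 (0.36), Nfya (0.31) and Irf8 (0.23) were also higher. Of the proteins that bind the X and Y boxes, NF-YB and RFXAP had lower transcripts (Nfyb -0.60, Rfxap -0.44), while Rfx5 (-0.01), Rfxank (-0.25) and Nfyc (-0.08) were not called. Sugt1 (-0.42), Kat2b (-0.26) and Rel (-0.22) were lower as well.

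**Figure D5:**
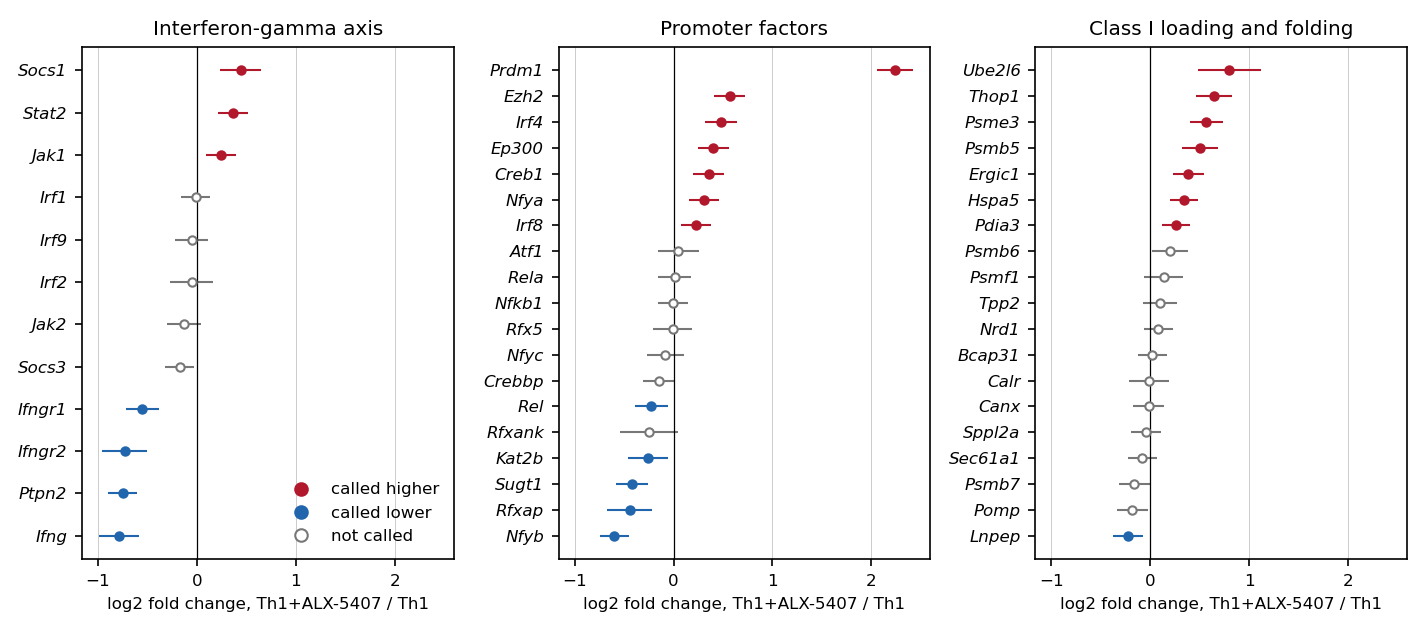
Log2 fold change with 95% intervals for genes of the interferon-γ axis, the promoter factors and the class I loading and folding genes; filled points were called higher or lower at an adjusted p under 0.05 and open points were not called. Ifng, Ptpn2, Ifngr2 and Ifngr1 are lower, Socs1, Stat2 and Jak1 higher, and Prdm1 lies far to the right at 2.24.

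The 14 genes that were not tested were silent or nearly so in these cells. H2-M1, H2-M9, H2-M11 and 5 of the H2-M10 genes (H2-M10.1, H2-M10.3, H2-M10.4, H2-M10.5 and H2-M10.6), most of which are known from vomeronasal neurons, had 0 counts in all 6 libraries, which allows a level of up to 0.0974 CPM (unscaled) in the shallowest library. H2-M10.2, H2-M2, H2-M5 and H2-T3 had at most 4 counts in any library. H2-Ke6 had 1 to 8 counts and H2-Eb2 0 to 18.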

How the data were processed

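RNA was sequenced from 3 Th1 and 3 Th1+ALX-5407 cultures, grouped and numbered by the sample labels. The labels call the libraries biological replicates but do not say whether they came from separate mice. The p-values therefore set the group difference against the variation between these libraries, estimated with information from all genes. They may not extend to variation between mice. The labels name poly-T beads and the study methods ribosomal RNA depletion. The authors deposited raw counts, the reads per gene, in a table of 54532 genes with GRCm38 coordinates and lengths. The submitters' processing notes name fastp, HISAT2 2.0.5 and featureCounts 1.5.0-p3. The treatment of multi-mapping reads and of strand is not given in the sources used here.

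The counts were fitted with edgeR 4.0.16 in R 4.3.3 (filterByExpr with a minimum count of 10 and a minimum total of 15, TMM, quasi-likelihood F test, Benjamini-Hochberg over 15938 genes). Levels per kb use the gene lengths of the file. Within a group the libraries differed by more than counting noise (chi-square per degree of freedom 5.65 to 22.4), so each was counted. Same-numbered libraries did not deviate together (correlations -0.0084, 0.0036 and 0.0635). In simulated libraries, 34 of 56 genes with a log2 change of 0.6, 59 of 65 with 1 and 76 of 76 with 2 were called, with 0 in the wrong direction and 4 false calls among 15785 genes. The simulation gave every gene the same dispersion, changed only these few genes and had no step below 0.6. Its rates therefore do not carry over to the real libraries, where many members were called at smaller changes.

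The members and gene lists were chosen with earlier results of these data known. Every member is accounted for, and from each other list the DEGs and up to 10 called genes with the smallest p are named, along with the defining markers, except for results that are not reported here. Calr and Canx, the uncalled regulators Irf1, Rfx5, Rfxank and Nfyc, and the markers at or near 0 were named after their values were seen. The mirrored interferon element was added after the promoters were read. RefSeq promoters (GRCm38.p6) were searched for motifs, and transcripts and exons of GENCODE M21 were compared, all 34 tested genes having a record there and 24 the same start and end. Alternatives were DESeq2 1.42.0, limma-voom (limma 3.58.1), other scalings and filters, protein-coding genes alone, summed copies, a stricter call, a replicate block and each library left out. Figures used matplotlib 3.10.9.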

Additional observations from a re-analysis of the deposited data

Results flagged for a closer look

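One gene outside the members was listed because it was called higher. Of the 5 tested H2- genes of other biotypes, 1 was higher and 2 lower, where 24.5% of all genes tested were higher and 23.2% lower. The lower genes, H2-K2 and H2-Q5, are given under the other observations and changed more than the higher gene, H2-T10. H2-T10 is named like a class I heavy chain but is annotated as a polymorphic pseudogene, so it was not among the protein-coding genes described. It was called higher with ALX-5407, with a log2 fold change of 0.24 (adjusted p = 0.0422, edgeR), and its Th1 and Th1+ALX-5407 libraries overlapped. H2-T10 is among the leading partners of H2-T22 in shared 75-base stretches, and whether reads of H2-T22 were counted on it was not tested.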

How the results depend on the processing

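Of the 18 called genes, 14 kept their direction and call under all 14 alternatives that refit the genes. H2-D1, Psmb10, H2-M3 and H2-Oa lost the call when single libraries were left out, as given with their values. The class I median (0.19) was 0.138 with upper quartile scaling and 0.144 with protein-coding genes alone, and 0.162 to 0.215 with each library left out. The class II median (-0.059) was -0.112 and -0.106 in the same fits, and -0.116 to -0.0374 with each library left out. With no filter, H2-Eb2 was fitted and class II had 2 genes called higher, and with each library left out it had 1 to 2 called higher and 1 to 2 called lower. Requiring an absolute log2 fold change over 1 left 1 member higher and 1 lower, which are 0 higher and 1 lower in class I and 0 lower in class II. Summed to 1 feature, the heavy chains gave 0.126 against a median of 0.174, and the class II chains -0.371 against -0.0919, since H2-Ab1 holds nearly all counts of that sum. The replicate block gave a class I median of 0.2 and a class II median of -0.0636, and it changed 2 calls, adding Erap1 (0.19, adjusted p = 0.031) and H2-Q7 (0.21, adjusted p = 0.0213). H2-Q7 was also called with no filter (adjusted p = 0.0272), and H2-Q4 was called lower with size factors (RLE), upper quartile scaling, a filter of 1 CPM, protein-coding genes alone and DESeq2.

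Direction changed only in uncalled genes, whose intervals include 0. H2-Eb1 was -0.028 with upper quartile scaling and -0.022 with protein-coding genes alone. With each library left out, H2-Eb1 ranged from -0.0984 to 0.157, H2-Aa from -0.271 to 0.0776, H2-DMb2 from -0.155 to 0.0749, Tapbpl from -0.118 to 0.0214, H2-Ob from -0.15 to 0.0394 and Ciita from -0.131 to 0.401. The cause of these shifts was not tested. Depth limits Ciita, H2-Aa and H2-Eb2, which had at most 28, 73 and 18 counts in any library.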

Other observations

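Genes named H2- with other biotypes numbered 11, of which 5 were tested. H2-K2, an unprocessed pseudogene, was lower with ALX-5407, at 28.1, 25.4 and 22.1 CPM in Th1 and 12.5, 12.4 and 12.6 CPM in Th1+ALX-5407 (log2 fold change -1.01, adjusted p = 1.31e-06, edgeR). H2-Q5, a polymorphic pseudogene, was also lower (log2 fold change -0.45, adjusted p = 0.000671). H2-T-ps and H2-Bl were not called, with log2 fold changes of -0.22 and -0.32.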
